A study of Mus musculus with 6 samples.

Results

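The type I interferon response genes described here are 37 genes of mouse spleen that carry or answer the signal of interferon-α and interferon-β. They were chosen by name: the receptor chains and signal carriers of the pathway, its RNA sensors, and the antiviral genes it induces. Of the 37 names, 36 were found among the 44794 named gene loci of the table. Their values are scaled fragment counts, that is, sequenced fragments assigned to a locus and scaled between libraries by quartile. Of these 36 loci, 31 reached a mean of 10 scaled counts over the 6 libraries and were tested, and 5 (Dhx58, Oasl1, Isg15, Bst2 and Ifi27l2a) did not. The remaining name, Ifit3b, stood under its older symbol I830012O16Rik and is given separately.

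RNA from whole spleen was sequenced in 6 libraries, 3 from each of 2 genotypes. B6.Sle1b mice are C57BL/6 mice with the lupus susceptibility interval Sle1b, the autoimmune-prone controls of the study. Sle1b.IFNγR-/- mice carry the same interval and lack the receptor for interferon-γ, the type II interferon. Both groups received imiquimod, which activates the RNA sensor TLR7, for 4 weeks at 3 doses a week, so that Sle1b and the treatment are common to all 6 libraries. The study's question was how interferon-γ acts on autoreactive B cells in TLR7-driven lupus. For the genes here the comparison asks whether spleen that cannot receive interferon-γ differed in the transcripts of the other interferon pathway. The labels do not name the receptor subunit that was disrupted, nor do they say whether the libraries come from separate mice. The p-values therefore describe the spread between these libraries, which may be technical. Libraries without imiquimod were not analysed here, so the values do not measure induction by the treatment.

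Type I interferons bind a receptor made of IFNAR1 and IFNAR2. Kinases at the receptor, TYK2 among them, then phosphorylate STAT2, which with IRF9 is part of a complex that binds a DNA element, the interferon-stimulated response element (ISRE), in the promoters of antiviral genes. Interferon-γ uses its own receptor and acts mainly through another element, the gamma-activated site (GAS), and many genes answer both interferons. In lupus, spleen and blood cells often carry a raised type I signature, with plasmacytoid dendritic cells as a main source of the ligand.

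Promoter stretches of 8 members and of Ifit3b are shown because they carry the ISRE by which these genes are known. They come from RefSeq windows of 300 bases on GRCm38.p6, running from 250 bases before to 50 after the annotated start. The motif searched was GAAANNGAAA, or TTTCNNTTTC on the other strand, and overlapping matches were kept. Each stretch runs 5′ to 3′ on the strand of its gene, and capitals mark the bases of the matches, with 20 bases or fewer on either side.
Isg15, chr4:156200855-156200916, minus strand: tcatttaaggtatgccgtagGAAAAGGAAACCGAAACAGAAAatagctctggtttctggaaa
Ifit1, chr19:34640765-34640833, plus strand: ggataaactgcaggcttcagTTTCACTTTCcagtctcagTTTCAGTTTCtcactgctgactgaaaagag
Ifit3, chr19:34583353-34583436, plus strand: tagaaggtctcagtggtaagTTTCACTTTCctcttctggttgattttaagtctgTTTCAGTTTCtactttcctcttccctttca
Ifit3b, chr19:34607749-34607832, plus strand: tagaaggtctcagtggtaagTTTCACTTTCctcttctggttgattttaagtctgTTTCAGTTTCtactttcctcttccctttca
Oas1a, chr5:120907526-120907565, minus strand: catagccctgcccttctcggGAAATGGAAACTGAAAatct
Oas1g, chr5:120887614-120887651, minus strand: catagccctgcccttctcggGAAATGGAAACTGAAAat
Oas3, chr5:120777705-120777754, minus strand: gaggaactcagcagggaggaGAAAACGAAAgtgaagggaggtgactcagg
Rsad2, chr12:26456543-26456592, minus strand: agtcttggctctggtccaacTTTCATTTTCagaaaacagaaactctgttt
Stat2, chr10:128270256-128270305, plus strand: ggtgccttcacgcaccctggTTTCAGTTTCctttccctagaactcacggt

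In Isg15 3 matches overlap in 1 run of 22 capitals, beginning 78 bases before the start. The stretches of Ifit3 and Ifit3b were identical in 84 of 84 bases and those of Oas1a and Oas1g in 38 of 38, so these promoters cannot be told apart by the letters shown. Of the 37 names, 28 had a window, and 14 of them (50%) held an ISRE match, against 3.99% of 27025 genes with a window. A GAS match (TTCNNNGAA, which is its own reverse complement) stood in 6 of the 28 windows (21.4%), against 9.55% of all genes. The GAS matches belonged to Ifnar1, Ifnar2, Ifit2, Oas1a, Eif2ak2 and Bst2. In the 19 windows of interferon-γ-inducible genes, a list used for comparison, 12 (63.2%) held an ISRE match and 11 (57.9%) a GAS match. A match is a string of letters and does not show that a factor was bound.

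The libraries corresponded to between 4394299 and 6349828 fragments, and 3 fragments were worth between 2.47 and 3.59 scaled counts. Within B6.Sle1b the libraries stood apart from each other. Named loci took up 26.96% of all scaled counts in replicate 1, and 17.5% to 19.95% elsewhere. The 29 ribosomal protein genes lay at 3.05 times their geometric mean over the 6 libraries in replicate 1, 0.743 in replicate 2 and 0.981 in replicate 3. In the Sle1b.IFNγR-/- libraries that level was 0.875, 0.911 and 0.917. The scaling factor of B6.Sle1b replicate 1 was only 1.202 by median ratio, 1.277 by upper quartile and 1.435 by the total of named loci. The ribosomal level is therefore not a general measure of coding RNA in these libraries. Spleen markers were present, with 10 of 10 B cell genes and 10 of 10 red pulp macrophage genes above the mean needed for the test. Transcripts of both interferon-γ receptor chains were detected in every library, with Ifngr1 at 34.5 to 81.5 in B6.Sle1b and 21.4 to 43.7 in Sle1b.IFNγR-/- and Ifngr2 at 7.50 to 13.2 and 4.79 to 10.1, and neither checks the genotype labels.

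No type I response gene differed between the genotypes past the test, and their median difference was close to that of all loci. None of the 31 tested members passed limma's test at a Benjamini-Hochberg adjusted p under 0.05 (smallest 0.99976), where 0% of the 19227 tested loci passed. Of the 31 members 1, Mx2, had an unadjusted p under 0.05, against 3.1% of all tested loci (596). The median log2 difference, Sle1b.IFNγR-/- minus B6.Sle1b on log2(value + 1), was -0.093 for the members and -0.083 for all tested loci. Differences were below 0 in 22 of the 31 (71.0%), against 58.1% of all tested loci. In 1 tested member, again Mx2, the 3 Sle1b.IFNγR-/- values all lay under the 3 B6.Sle1b values, against 5.19% of tested loci. In 0 members did they all lie above, against 3.51%.

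**Figure D1:**
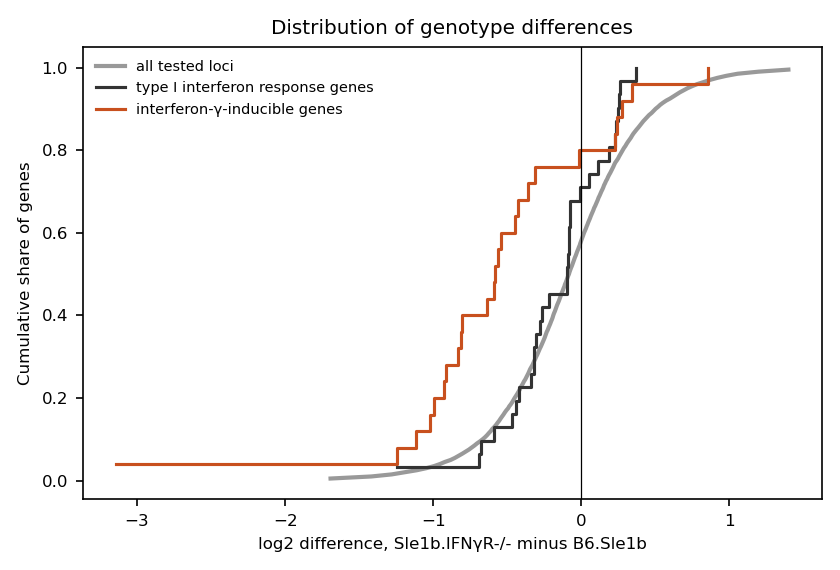
Cumulative share of genes (vertical axis) against the log2 difference of Sle1b.IFNγR-/- minus B6.Sle1b (horizontal axis) for all 19227 tested loci (extremes not drawn), the 31 tested type I response genes and 25 interferon-γ-inducible loci. The type I curve crosses its middle at -0.093, close to the -0.083 of all loci, and the interferon-γ curve at -0.58, and no test compared the curves.

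The spread bounds what these libraries can show. The 95% interval of the log2 difference had a median half-width of 0.93 (0.585 in Ifi44 to 1.89 in Cmpk2). It included 0 in 30 of the 31 members and lay wholly within a 2-fold change either way in 9. Estimated differences were under 0.5 in size in 27 of 31. In the other 22 the interval reached past a 2-fold change in at least 1 direction, so a change of that size in that direction is not excluded for them.

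**Figure D2:**
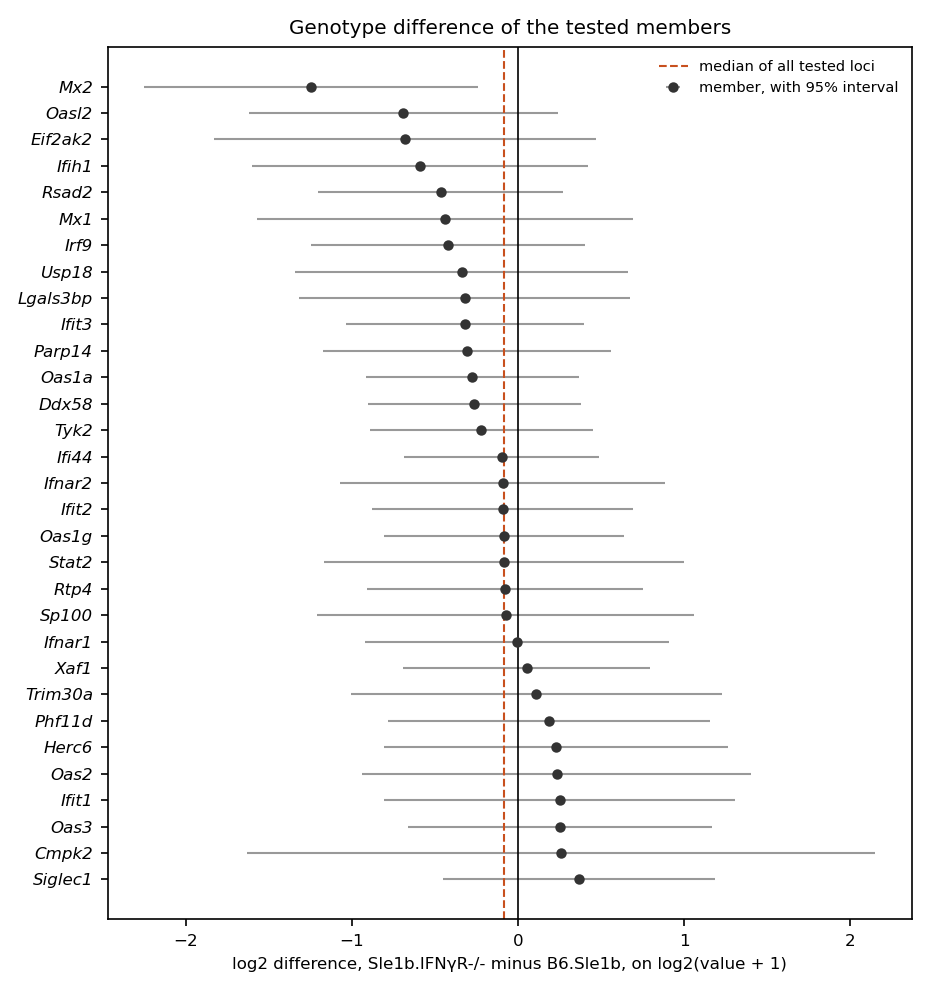
Log2 difference of Sle1b.IFNγR-/- minus B6.Sle1b for each of the 31 tested members (points), with its 95% interval from limma (lines). The dashed line is the median of all tested loci, -0.083, and the interval of Mx2 alone lies wholly below 0, from -2.25 to -0.24.

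The receptor and its signal carriers had 5 of 5 members tested, with differences below 0 in 5 and a median of -0.093. This median was 0.33 without B6.Sle1b replicate 1 and 0.44 when values were scaled to ribosomal protein genes. Under the same settings all tested loci had 0.020 and 0.42. Ifnar1, the receptor chain anchored by TYK2 (chromosome 16, 91485238 to 91507441, GRCm38), gave 58.1, 18.9 and 43.1 in B6.Sle1b, against 48.1, 31.5 and 31.1 in Sle1b.IFNγR-/-. Its log2 difference was -0.006 (SE 0.42), and the Sle1b.IFNγR-/- values all fell inside the B6.Sle1b range. Ifnar2, the chain that binds ligand with higher affinity (chromosome 16, 91372783 to 91405589), had 122, 27.95 and 54.4 against 53.3, 43.8 and 65.9. The highest and lowest values of Ifnar2 were both in B6.Sle1b, and the log2 difference was -0.093 (SE 0.45). The Ifnar2 locus was merged with Il10rb and Gm21970, so its value is not that of Ifnar2 alone.

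Tyk2, the kinase bound to IFNAR1 (chromosome 9, 21104068 to 21131243), gave 101, 54.3 and 77.8 in B6.Sle1b, against 61.2, 66.3 and 65.9 in Sle1b.IFNγR-/-, with a log2 difference of -0.22 (SE 0.31). Its 3 Sle1b.IFNγR-/- libraries were close to each other and lay between the lowest and the middle control. Stat2, whose product acts with IRF9 on the ISRE, had 79.5, 16.4 and 23.4 against 27.1, 34.8 and 27.6. The first B6.Sle1b library was far above the rest, and without it the log2 difference of Stat2 went from -0.085 to 0.57. Irf9, the DNA-binding partner of that complex, had 112, 78.9 and 76.9 against 72.6, 107 and 35.9, a log2 difference of -0.42 (SE 0.38). Irf9 shared its locus with Rnf31, and its groups overlapped through the second Sle1b.IFNγR-/- library.

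The RNA sensors and the RNA-activated kinase had the second lowest median of the role groups, -0.59, with 3 of 3 tested members below 0. Scaled to ribosomal protein genes, 2 of 3 were below 0, where 3289 of 19227 tested loci were. The median of this role group was -0.19 without B6.Sle1b replicate 1 and -1.12 without replicate 2. Eif2ak2, which encodes the kinase PKR that halts translation on double-stranded RNA (chromosome 17, 78852564 to 78882573), had 80.5, 18.9 and 42.2 in B6.Sle1b, against 46.3, 22.5 and 14.4 in Sle1b.IFNγR-/-. The log2 difference was -0.68 (SE 0.53), and 2 of the 3 Sle1b.IFNγR-/- values were above the lowest control. Ifih1, the sensor MDA5 of long double-stranded RNA (chromosome 2, 62595798 to 62646255), had 93.7, 24.7 and 61.9 against 27.1, 28.1 and 53.9, a log2 difference of -0.59 (SE 0.47). All 3 of its Sle1b.IFNγR-/- values exceeded B6.Sle1b replicate 2 and lay under the other 2 controls. Ddx58, the sensor RIG-I of RNA with a 5′ triphosphate, had its highest value in B6.Sle1b replicate 2 (139) and its lowest in Sle1b.IFNγR-/- replicate 1 (72.6), with a log2 difference of -0.26 (SE 0.30). Dhx58, a relative without signalling domains, lay between 4.79 and 13.1 in the 6 libraries and was not tested.

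The IFIT genes, whose products bind viral RNA, had log2 differences between -0.32 and 0.25. Ifit1 (chromosome 19, 34640871 to 34650009) had 33.6, 9.04 and 15.9 in B6.Sle1b, against 20.99, 21.4 and 19.2 in Sle1b.IFNγR-/-. Its Sle1b.IFNγR-/- libraries were nearly alike, while the controls lay on both sides of them, and the log2 difference was 0.25 (SE 0.49). Ifit3 (chromosome 19, 34583531 to 34588731) had 53.5, 43.7 and 33.3 against 31.0, 36.6 and 34.8, a log2 difference of -0.32 (SE 0.33). Ifit2 lay between 24.7 and 43.8 in B6.Sle1b and between 25.1 and 30.6 in Sle1b.IFNγR-/-. Ifit3b, under its older symbol (chromosome 19, 34607970 to 34613401), had 68.3, 33.7 and 46.9 against 47.2, 42.7 and 33.5, a log2 difference of -0.22 (SE 0.35). Ifit3 and Ifit3b are closely similar neighbours, whose promoter stretches above are the same, and reads may have been divided between them.

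The OAS genes encode sensors of double-stranded RNA that make 2′-5′-linked oligoadenylate, the activator of RNase L, or relatives that do not. The 5 tested members had a median difference of -0.085, with 3 lower and 2 higher. Oas1a (chromosome 5, 120896256 to 120907521) had 74.4, 83.8 and 90.0 in B6.Sle1b, against 75.2, 80.9 and 51.5 in Sle1b.IFNγR-/-, with a log2 difference of -0.28 (SE 0.30). In Oas1a the third Sle1b.IFNγR-/- library alone lay outside the control range. Oas1g, with the same promoter stretch, ranged from 45.0 to 89.6 against 49.1 to 70.8. Oas3, with an ISRE match 75 bases before its start, had 142, 45.2 and 45.0 against 66.5, 70.8 and 105, so 2 of the 3 controls were lower than any Sle1b.IFNγR-/- library. Oas2 showed the same order, with 43.8, 8.22 and 14.1 against 20.1, 20.2 and 21.6. Both had log2 differences above 0, at 0.26 (SE 0.42) for Oas3 and 0.23 (SE 0.54) for Oas2.

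Oasl2 and Oasl1 are the OAS-like members. Oasl2 (chromosome 5, 114896936 to 114912234) had 176, 46.0 and 70.3 in B6.Sle1b, against 46.3, 65.2 and 44.3 in Sle1b.IFNγR-/-. Its log2 difference of -0.69 (SE 0.43) became -0.15 without B6.Sle1b replicate 1. Oasl1 (chromosome 5, 114923240 to 114937915), which in mice restrains translation of Irf7 mRNA, had 18.3, 11.5 and 8.44 against 0.874, 3.37 and 2.40. At that locus the groups did not overlap, and 41 fragments in B6.Sle1b stood against 6 in Sle1b.IFNγR-/-, a scaled ratio of 0.167 (95% exact interval 0.0578 to 0.395, counting error only). Oasl1 was under the mean needed for the test and is singled out after its values were seen. With no low-value filter its log2 difference was -2.12 (SE 0.83) and limma's adjusted p 0.964. A second locus, which matched no annotated transcript, also carries the name, with 0, 3.29 and 3.75 against 4.37, 0 and 11.98. Summed over both loci Oasl1 had 18.3, 14.8 and 12.2 against 5.25, 3.37 and 14.4, and the groups then overlapped through Sle1b.IFNγR-/- replicate 3.

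Mx2, a gene of the dynamin-like MX GTPase family (chromosome 16, 97535308 to 97560900), had the largest difference of the tested members. Over the libraries it gave 35.7, 34.5 and 19.7 in B6.Sle1b, against 6.995, 16.9 and 13.2 in Sle1b.IFNγR-/-, with means of 29.96 ± 8.91 and 12.3 ± 4.98 (SD, n = 3 each). These rest on 35, 42 and 21 fragments against 8, 15 and 11. Every Sle1b.IFNγR-/- value was under every control value, yet the lowest control and the highest Sle1b.IFNγR-/- value lay close. The log2 difference was -1.24 (SE 0.46, 95% interval -2.25 to -0.24), with a limma p of 0.0189 and an adjusted p of 0.99976, so Mx2 did not pass over all tested loci. The difference of Mx2 was -1.10 without B6.Sle1b replicate 1 and -1.12 without replicate 2. Scaled to ribosomal protein genes it was -0.75, where the median of all tested loci was 0.42. Mx1, the neighbouring gene (chromosome 16, 97447035 to 97462907), which is defective in most laboratory strains including C57BL/6, had 19.4, 22.2 and 9.38 against 10.5, 10.1 and 14.4. The Mx1 groups overlapped, with a log2 difference of -0.44 (SE 0.52). Transcript values do not show whether Mx1 or Mx2 gives a working protein in these mice.

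The ISG15 system tags proteins with a ubiquitin-like protein. Isg15, which encodes that tag (chromosome 4, 156199424 to 156200818), had only 12.2, 9.87 and 4.69 in B6.Sle1b, against 10.5, 19.1 and 2.40 in Sle1b.IFNγR-/- and was not tested. The highest and lowest values of Isg15, a common marker of the pathway, were both in Sle1b.IFNγR-/-. Usp18, the protease that removes the tag and restrains IFNAR2 signalling (chromosome 6, 121245906 to 121270917), had 27.5, 23.0 and 13.1 against 13.99, 23.6 and 11.98. Replicates 2 and 3 of the controls fell, for Usp18, among the Sle1b.IFNγR-/- values, and the log2 difference was -0.34 (SE 0.46). Herc6, the main ISG15 ligase of mice, had 77.4, 18.9 and 69.4 against 75.2, 40.5 and 55.1, a log2 difference of 0.23 (SE 0.48).

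Of the other antiviral effectors 5 were tested, with a median of -0.079. Rsad2, which encodes viperin, an enzyme that makes a chain-terminating nucleotide (chromosome 12, 26442746 to 26456452), had 149, 70.7 and 72.2 in B6.Sle1b, against 77.8, 65.2 and 56.3 in Sle1b.IFNγR-/-. The log2 difference was -0.46 (SE 0.34) and became -0.12 without B6.Sle1b replicate 1. Cmpk2, the nucleotide kinase gene beside Rsad2 (chromosome 12, 26469204 to 26479837), had 36.7, 4.11 and 3.75 against 19.2, 12.4 and 4.79. Its log2 difference of 0.26 (SE 0.88) was the least precise of the 31. Ifi44 was the most precise, with 119, 88.8 and 92.8 against 91.8, 94.4 and 92.2 and a log2 difference of -0.098 (SE 0.27). Its 3 Sle1b.IFNγR-/- libraries lay between 91.8 and 94.4. Xaf1, a pro-apoptotic factor, ranged from 36.2 to 49.7 against 32.6 to 61.1, and Rtp4, a chaperone of membrane receptors, from 30.4 to 80.5 against 37.6 to 61.8. Bst2, the gene of tetherin, lay between 0 and 4.79. Ifi27l2a had 16.3, 0 and 2.81 against 4.37, 2.25 and 3.59, the highest being B6.Sle1b replicate 1.

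The last 6 members are induced genes of other functions, with 3 lower, 3 higher and a median of 0.018. That split rested on B6.Sle1b replicates 1 and 2: without replicate 1 the median was 0.50 with 0 of 6 lower, and without replicate 2 it was -0.68 with 5 of 6 lower. Siglec1, a sialic acid receptor of metallophilic macrophages that is also used as a type I interferon marker (chromosome 2, 131069220 to 131086765), had 51.97, 49.3 and 22.5 in B6.Sle1b, against 41.1, 50.6 and 61.1 in Sle1b.IFNγR-/-. It had the highest difference of the 31, 0.37 (SE 0.38), and its groups overlapped. Parp14, an ADP-ribosyltransferase gene (chromosome 16, 35832874 to 35871544), had 136, 40.3 and 85.3 against 63.8, 52.8 and 73.1, a log2 difference of -0.31 (SE 0.40). Lgals3bp, a secreted glycoprotein gene, had the widest range, with 367, 74.0 and 139 against 105, 111 and 165. Sp100, a nuclear body gene whose locus was merged with n-R5s215, had 256, 35.3 and 94.7 against 86.6, 103 and 82.7. Trim30a, of the TRIM family of ubiquitin ligases, had 184, 27.1 and 75.9 against 74.3, 91.0 and 71.9, and Phf11d 46.9, 14.8 and 51.6 against 35.0, 46.1 and 33.5. In each of Lgals3bp, Sp100 and Trim30a the first control library was the highest of all 6 and the second control library the lowest.

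**Figure D3:**
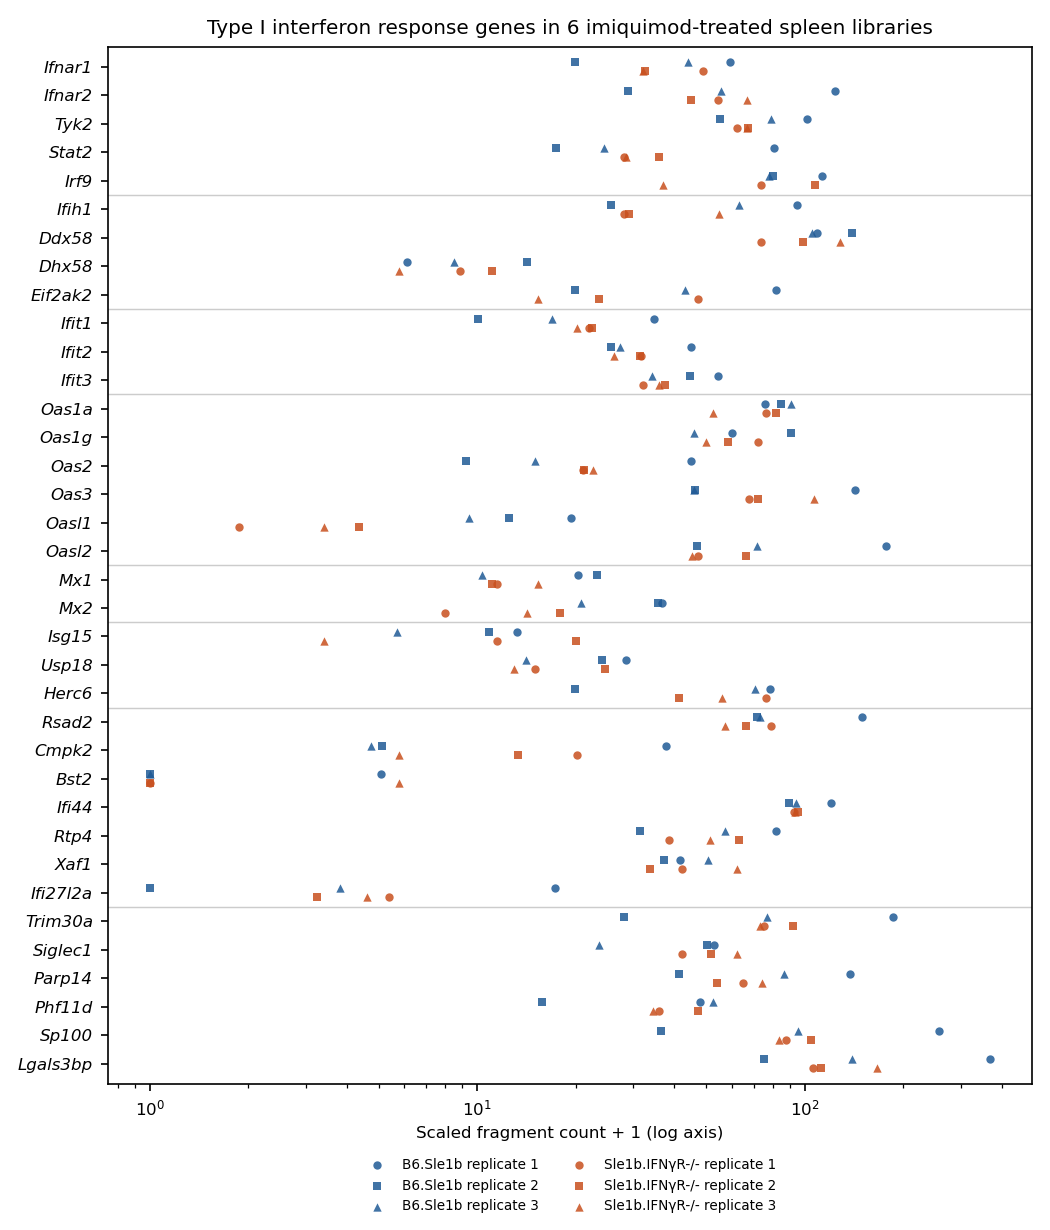
Scaled fragment count plus 1 (log axis) of the 36 members in each library, blue for B6.Sle1b and orange for Sle1b.IFNγR-/-, with circles, squares and triangles for replicates 1 to 3. Grey lines separate the role groups. B6.Sle1b points spread to both sides of the Sle1b.IFNγR-/- points in many rows, and Mx2 and Oasl1 are the rows in which the colours separate.

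Among the B6.Sle1b libraries, replicate 1 stood high and replicate 2 low for many members. B6.Sle1b replicate 1 had the highest value of 24 of the 31 tested members, and of 37.9% of all tested loci. B6.Sle1b replicate 2 had the lowest of 16 of 31, and of 24.3% of all tested loci. The median member ratio of replicate 1 to replicate 2 was 3.07 (0.66 to 8.92), against 1.24 for all tested loci. Highest over lowest value within a group had a median of 3.07 in B6.Sle1b, against 1.49 in Sle1b.IFNγR-/-, and was larger in B6.Sle1b for 26 of the 31, against 58.9% of all tested loci. These members share the libraries, so the counts describe the 6 libraries and are not independent.

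Leaving out B6.Sle1b replicate 1 changed the sign of 9 member differences, and leaving out replicate 2 that of 9. Without B6.Sle1b replicate 1, 13 of 30 tested members were lower and the median was 0.064, where all tested loci had 0.020. Without B6.Sle1b replicate 2, 29 of 31 were lower and the median was -0.40, where all tested loci had -0.17. When each library's ribosomal level was a covariate of the fit, 13 of 31 were lower and the median was 0.079. Without replicate 1 the medians of the IFIT, ISG15 and other effector groups also turned above 0, to 0.16, 0.23 and 0.033, while that of the OAS genes was -0.12. Scaling between libraries moved the same split, to 14 of 31 lower by upper quartile or by total and to 4 of 31 (Mx2, Oasl2, Eif2ak2 and Ifih1) when ribosomal protein genes were the reference. These scalings also shifted the median of all tested loci, to 0.033, 0.057 and 0.42, and that of the members to 0.027, 0.051 and 0.43. Each scaling divides all loci of a library by 1 factor, so members and all loci shift nearly alike by construction. In none of these fits was a member called.

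**Figure D4:**
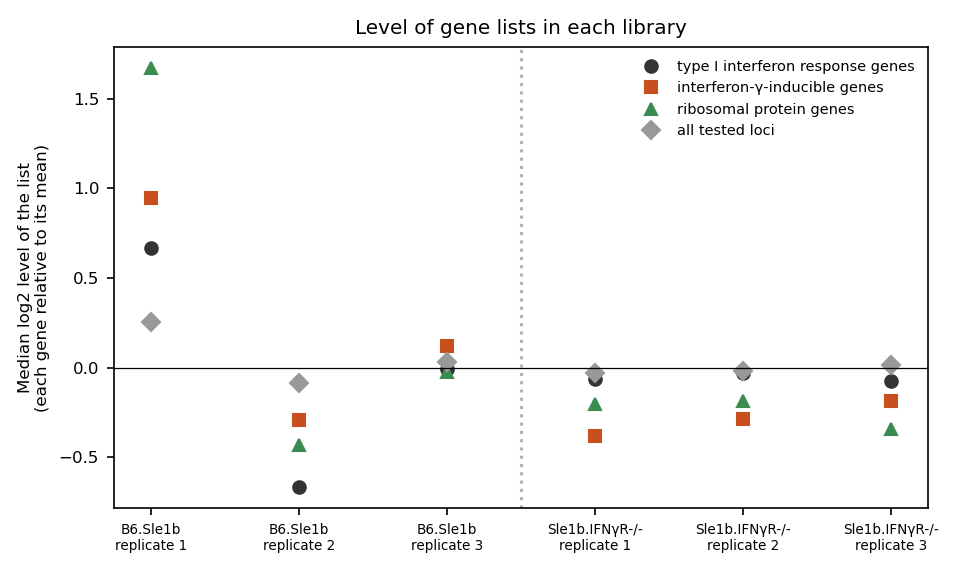
Median log2 level, each gene relative to its own mean over the 6 libraries, for type I response genes (circles), interferon-γ-inducible genes (squares), ribosomal protein genes (triangles) and all tested loci (diamonds). The type I genes lie at 0.67, -0.67 and -0.006 in B6.Sle1b and between -0.076 and -0.032 in Sle1b.IFNγR-/-.

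The members were then set beside genes known for their answer to interferon-γ. Of 25 tested loci of that list, 20 were lower in Sle1b.IFNγR-/-, with a median of -0.58, and -0.31 without B6.Sle1b replicate 1. Scaled to ribosomal protein genes, 15 of 25 were lower and the median was -0.063, where that of all loci was 0.42. None passed limma's adjusted threshold, and 4 (Cxcl9, Serpina3f, Tgtp2 and Zbp1) had an unadjusted p under 0.05, against 3.1% of all tested loci. In 4 (Cxcl9, Zbp1, Gbp6 and Cd274) the groups did not overlap, all lower, against 5.19% of all tested loci. Cxcl9, a chemokine gene, had a log2 difference of -3.14 (SE 0.53) and a limma adjusted p of 0.99976. That adjusted p depended on the setting. Adding the ribosomal covariate gave 0.0075, and leaving out B6.Sle1b replicate 2 gave 0.011. Leaving out replicate 1 gave 0.12, dropping the low-value filter 0.136 and scaling to ribosomal protein genes 0.492, all above the threshold. The ribosomal level was 3.05 in B6.Sle1b replicate 1 and 0.743 to 0.981 elsewhere, so the covariate mainly sets that library apart. Within a library the summed scaled counts of the 36 type I members were 1.11, 1.21 and 1.19 times those of the interferon-γ list in B6.Sle1b, against 1.52, 1.54 and 1.40 times in Sle1b.IFNγR-/-. This ratio did not overlap between groups, also when Cxcl9 was left out (1.20, 1.27 and 1.25 against 1.53, 1.56 and 1.41). The lists have no locus in common, and a ratio within a library does not depend on the scaling between libraries. It shows unequal levels of the lists and not which of them changed. The lists were chosen with earlier results of these data known, so the separation is a description only.

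Set against the summed values of all tested loci, the 31 tested type I members came to 0.202%, 0.1505% and 0.172% in B6.Sle1b, against 0.164%, 0.164% and 0.165% in Sle1b.IFNγR-/-. The groups overlapped, and the Sle1b.IFNγR-/- libraries were nearly alike. The 25 tested loci of the interferon-γ list came to 0.183%, 0.125% and 0.145%, against 0.107%, 0.108% and 0.117%, with no overlap. Cxcl9 (107 against 9.68), Gbp3 (22.6 against 8.45) and Serpina3g (16.5 against 6.39) were among loci with a mean of 10 in B6.Sle1b alone. Nos2 was the reverse (9.89 against 10.8). The separation of the shares is thus a description of chosen loci. No test of the difference between the lists was made.

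**Figure D5:**
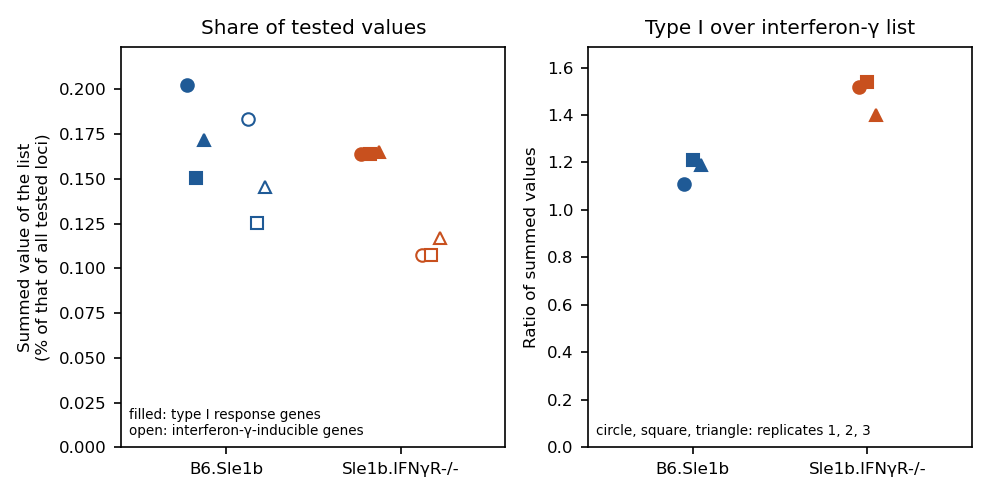
Left, summed scaled counts of the 31 tested type I response genes (filled) and the 25 tested interferon-γ-inducible loci (open) as a percent of the values of all tested loci in each library; right, the ratio of the summed counts of the lists, untested members included, with circles, squares and triangles for replicates 1 to 3. The type I shares of the groups overlap, the interferon-γ shares do not, and the ratio is 1.11 to 1.21 in B6.Sle1b and 1.40 to 1.54 in Sle1b.IFNγR-/-.

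The members were also divided by the letters of their promoters. The 11 tested members with an ISRE match had a median of -0.26, with 8 lower, and the 13 with a window and no match had -0.092, with 9 lower. The 5 tested members with a GAS match were lower in 5, with a median of -0.093 and a range of -0.68 to -0.006. The 19 without one had a median of -0.085 with 12 lower. These are descriptions of small sets whose ranges overlapped.

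Other genes of the type I pathway, from a list of 46 names, were tested in 39 cases. None passed the adjusted threshold in either direction, and 0 had an unadjusted limma p under 0.05. Of the 39, 31 were lower, with a median of -0.33. Without B6.Sle1b replicate 1 the median was 0.065 with 16 of 37 lower, where all tested loci had 0.020. Scaled to ribosomal protein genes it was 0.19 with 14 of 39 lower. All tested loci then had a median of 0.42, with 3289 of 19227 lower. Irf7, the factor that amplifies interferon-α production, had 42.8, 7.40 and 22.5 in B6.Sle1b, against 5.25, 13.5 and 4.79 in Sle1b.IFNγR-/-, with a log2 difference of -1.35 (SE 0.69). Trex1, a DNA exonuclease that limits the DNA-sensing route to interferon, had 26.5, 16.4 and 24.4 against 36.7, 40.5 and 34.7, in a locus merged with Atrip. Its log2 difference was 0.73 (SE 0.35), and it was the only tested gene of this list higher in all 3 Sle1b.IFNγR-/- libraries than in every control. Irf3, Tlr9 and Tmem173, which encodes STING, were the tested genes with all 3 values lower. These 3 of 39 stand beside 5.19% of all tested loci, and Trex1 as 1 of 39 beside 3.51%. Ifitm3 (-1.24, SE 0.61) and Ptpn6 (-0.73, SE 0.38) overlapped between groups. Without B6.Sle1b replicate 1 the difference was -0.37 for Ifitm3, -0.29 for Ptpn6 and -0.80 for Irf7. Irf1 and Socs1 belong to this list and to the interferon-γ list.

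Transcripts of the interferons themselves were scarce. Of 21 interferon genes, 2 reached the mean of 10. Ifna2 had 121, 66.6 and 45.0 in B6.Sle1b, against 66.5, 64.1 and 56.3 in Sle1b.IFNγR-/-, with a log2 difference of -0.20 (SE 0.36), and Ifna6 had 28.5, 51.0 and 32.8 against 31.5, 41.6 and 10.8. Interferon-α genes are close copies of each other, so these assignments are uncertain. Ifnb1 had 2.04, 2.47 and 1.88 against 4.37, 0 and 0, values at or about the 3-fragment floor. Ifng, the ligand of the missing receptor, had 6.11, 4.11 and 3.75 against 2.62, 0 and 2.40.

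Fewer cells of a type and less RNA per cell cannot be told apart in whole spleen, so markers of cells that make or hold these transcripts are given. Plasmacytoid dendritic cell markers had 6 of 11 tested, 4 lower and 2 higher, with a median of -0.080. Their summed scaled counts were 219 to 415 in B6.Sle1b and 258 to 303 in Sle1b.IFNγR-/-, and 1 marker, Ccr9, did not overlap between groups, with 36.7, 32.1 and 63.75 against 25.4, 30.3 and 27.55, at a locus merged with Gm17200. The log2 difference of Ccr9 was -0.59 (SE 0.36), that of Tcf4 -0.84 (SE 0.52) and that of Siglech 0.63 (SE 0.39). Marginal zone and metallophilic macrophage markers, Siglec1 among them, were higher in 5 of 6, with a median of 0.25 and sums of 155 to 284 against 198 to 246. Monocyte markers were lower in 9 of 9, with a median of -0.68 and sums of 214 to 1296 against 318 to 363. Without B6.Sle1b replicate 1, 4 of 8 were lower, where 8996 of 18637 tested loci were. Scaled to ribosomal protein genes, 5 of 9 were lower with a median of -0.17. All tested loci then had 3289 of 19227 lower and a median of 0.42. Cx3cr1 was the monocyte marker without overlap, with 21.4, 15.62 and 30.0 against 4.37, 14.6 and 15.57. Ccr9 was 1 of 6 and Cx3cr1 1 of 9 tested markers, where 5.19% of all tested loci were lower without overlap. In these 3 lists 0 genes passed the adjusted threshold, 0 had an unadjusted limma p under 0.05 and 0 were at 0 in every library. The part of cell composition in the member values was not tested.

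Per kilobase of annotated exon, the mean level over the 6 libraries was highest for Lgals3bp (56.3 scaled counts per kb), followed by Oas1a (40.3), Oas1g (26.4), Rtp4 (24.8), Ifit3 (22.2) and Trim30a (21.3). The lowest were Bst2 (1.64), Dhx58 (2.47), Oasl1 (2.87), Cmpk2 (3.24) and Mx1 (3.78). Isg15, a short gene with a low count, stood at 13.0 per kb. Loci also hold assembled transcripts beyond the annotation, which makes these lengths approximate.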

How the data were processed

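Per the labels' protocols, spleen RNA was extracted with TRIzol and made into cDNA with the amplifying Ovation V2 kit. TopHat2 2.0.9, Cufflinks 2.2.1, CASAVA and the build GRCm38 are named in the submitters' processing notes. The handling of strand and of reads that map to several places is not given in the sources used here, so reads of overlapping or antisense genes cannot be told apart. The values are a signal that the authors deposited: fragment counts per locus, scaled by quartile per the file headers. Its 1530481 rows were collapsed to 426574 loci. In every library 99.8% of positive values were whole multiples, within 0.01, of the value of 1 fragment. The rest were not, and the values are scaled, so the count tests planned for whole unscaled counts were not run. Another 24 columns of per-sample values were not used.

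For the test, named loci needed a mean of 10 or more (19227 loci). The fit was made on log2(value + 1) in R 4.3.3 (limma 3.58.1), with trended variances, genotype as the only term and Benjamini-Hochberg adjustment over all of them. The added 1 makes fold changes of low genes too small. Where a name stood at several loci, that of highest mean was used. Intervals of limma cover 95%. Tables and figures used python 3.11.15, pandas 2.3.3, numpy 2.4.6, scipy 1.17.1 and matplotlib 3.10.9. Coordinates are from GENCODE mouse release 21 and promoters from RefSeq (GRCm38.p6). The procedure was tested on simulated data. There 78% of 4-fold and 100% of 16-fold changes were called, with 11 false calls among 19227 loci. The simulated noise was independent between loci, without the library-wide shifts seen here. The simulation therefore does not show what can be detected in these libraries.

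The members and lists were chosen with earlier results of these data known. All members are accounted for. Values in every library are given for tested members whose groups do not overlap, the receptor chains and Tyk2, and up to 2 more of lowest p per role group, and further members were added where space allowed. Of the other type I pathway and interferon-γ lists, up to 4 genes of lowest p are named, and of these and the marker lists the tested genes without overlap. Marker lists are otherwise given by counts and medians, with a few genes added. Oasl1 was singled out after its values were seen. Alternatives were 4 other scalings, a minimum mean of 50 or none, a pseudocount of 0.5 or 10, robust and trendless limma, the ribosomal covariate, a replicate block and leaving out each library.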

Additional observations from a re-analysis of the deposited data

How the results depend on the processing

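In all 18 other settings 0 members were called by limma, with a lowest adjusted p of 0.378 (Oasl2, without B6.Sle1b replicate 2) and between 0 and 6 members at an unadjusted p under 0.05. Over all loci the calls numbered 0 in the fit reported, 1 with scaling to the total, 8 with the ribosomal covariate and 5 each without B6.Sle1b replicate 1 or 2. Cxcl9 of the interferon-γ list was among them with the covariate and without replicate 2. The number of lower members, 22 of 31, became 14 with upper-quartile scaling, 14 with scaling to the total of named loci, 4 with scaling to ribosomal protein genes, 13 with the ribosomal covariate and 13 with a minimum mean of 50, where 16 were tested. The median of the members became 0.428 with scaling to ribosomal protein genes. Over the libraries left out in turn, the number lower ranged from 13 to 29 and the median from -0.404 to 0.064. With upper-quartile, total and ribosomal scaling the median of all tested loci was 0.033, 0.057 and 0.423. That of the members was 0.027, 0.051 and 0.428. This nearly equal shift follows from the scaling itself, which divides all loci of a library by 1 factor. With the minimum of 50 a smaller number was tested. For the covariate and the libraries left out, the cause was not tested. The log2 difference of Mx2 stayed below 0 wherever it was tested, between -0.749 and -1.513. Member values moved by more than their SE in 56 cases, 21 of them with a library left out and 27 with another scaling. Same-numbered libraries of the groups shared only a number (correlations of deviations 0.01, -0.03 and -0.01). With the replicate block the median was -0.093 and 22 members were lower. A block balanced over the groups cannot change the differences, only their errors, so these values are no check. The planned count tests were not run, as the values are scaled. With 3 libraries a group and 4394299 to 6349828 fragments each, most members' intervals include a 2-fold change.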

Other observations

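Ifit3 was the only one of the 36 members whose scaled counts were not whole multiples of 1 fragment, and this held in all 6 libraries. Divided by the value of 1 fragment, they came to 52.46, 53.16 and 35.5 in B6.Sle1b, against 35.43, 32.53 and 29.07 in Sle1b.IFNγR-/-. Its closely similar neighbour Ifit3b had whole values in every library, with 67, 41 and 50 fragments against 54, 38 and 28.

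Across the 36 members the mean scaled count had a Spearman correlation of 0.506 with annotated exonic length and 0.385 with the span of the gene. This is a description across genes, which share the same 6 libraries.

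Markers of other cell types in the same libraries gave medians of -0.23 for B cells (8 of 10 lower), 0.14 for T cells (3 of 8 lower), -0.24 for conventional dendritic cells (6 of 7 lower), -0.096 for neutrophils (4 of 6 lower), -0.001 for red pulp macrophages (5 of 10 lower), 0.17 for erythroid cells (3 of 9 lower) and -0.46 for NK cells (1 of 2 lower). Conventional dendritic cells and B cells had 1 gene each with an unadjusted limma p under 0.05, the other 5 lists had 0, and none of the genes passed the adjusted threshold. Groups without overlap were seen in C1qa (red pulp macrophages), Flt3 and Itgax (conventional dendritic cells), all lower, and in Cr2 (B cells), higher. Over all tested loci 58.1% had a difference below 0, 5.19% were lower and 3.51% higher without overlap, and 3.1% had an unadjusted limma p under 0.05. Leaving out B6.Sle1b replicate 1 gave medians of 0.12 for B cells (3 of 10 lower) and -0.034 for conventional dendritic cells (4 of 7 lower). The medians were then 0.25 for T cells, 0.094 for neutrophils, 0.385 for red pulp macrophages and -0.47 for NK cells, where all tested loci had 0.020. Without B6.Sle1b replicate 1 the erythroid median was 1.12, and without replicate 2 it was -0.56, a wider swing than that of the type I members.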
